A study of Mus musculus with 4 samples.

Results

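The genes described here encode the enzymes, cofactors and membrane proteins of the lysosome, the acidic organelle in which cells break down glycolipids, glycoproteins, glycogen, proteins and lipids. A list of 40 genes was taken, each represented by the probe set that names that gene alone and has the highest mean log2 signal over the 4 arrays. Of these, 39 were measured, out of 12394 genes in all; no probe set naming Cd63 alone was used here. The question put to the list was whether Hexa moved alone or with the lysosome as a whole.

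All 4 arrays came from marrow of mice carrying the Mll-AF4stop knock-in allele, in which a fusion of the methyltransferase gene Mll and AF4 stays silent until Cre recombinase acts. All mice had 5-FU (5-fluorouracil, which kills dividing blood cells) 5 days before the marrow was infected outside the animal. The Cre-GFP group (arrays Cre-GFP 1 and 2) received a retrovirus with Cre and GFP, and the control group (control 1 and 2) a GFP retrovirus; GFP+ cells were sorted 2 days later and kept for 14 days in cytokines that favour lymphoid progenitors. The series' design text names the control virus MIG-Cre, against the sample labels, which were followed; had it carried Cre, the comparison would be a different one. Age, sex and strain of the mice were not used here, and nothing in the labels ties the arrays to separate mice or cultures, so p-values here rest on array-to-array spread alone, and that spread could be technical. By design, effects of Cre itself and of the active fusion cannot be told apart. A difference in bulk RNA cannot be told apart between fewer cells of a type and less RNA per cell.

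Soluble lysosomal enzymes are made in the endoplasmic reticulum, tagged with mannose 6-phosphate and carried to the lysosome by receptors, while the proton pump of its membrane keeps the interior acidic. Many of their genes share a promoter sequence around the letters TCACGTG, the CLEAR element, to which TFEB and its relatives TFE3 and MITF bind. Inherited loss of individual members causes storage diseases, among them Tay-Sachs disease for HEXA, and macrophages, osteoclasts and granulocytes are rich in lysosomes or related granules.

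The promoters are shown because the element is what many members have in common and Hexa lacks in this window. RefSeq's table (GRCm38.p6) held promoters, from 250 bases before to 50 bases after a start, for 35 of the 40 genes, 34 of them measured. TCACGTG, searched on both strands, lay in the promoters of 11 of the 34 (32.4%), against 6.1% of the 9888 measured genes with a promoter and 3.77% of all 32851 promoters of the same length. The following 30-base windows, all before the start, are written 5′ to 3′ on the gene's strand, with the matched letters in capitals. Where the match extends to TCACGTGA, which contains the shorter motif, the whole of it is in capitals, and of several matches of that length before the start the one nearest to it is shown; Ctsa has a further match after its start.
Cln3 (chr7:126583340-126583369, minus strand): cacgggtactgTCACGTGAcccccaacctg
Ctsa (chr2:164833743-164833772, plus strand): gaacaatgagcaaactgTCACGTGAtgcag
Ctsd (chr7:142387908-142387937, minus strand): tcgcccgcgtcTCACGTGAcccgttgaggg
Gla (chrX:134601182-134601211, minus strand): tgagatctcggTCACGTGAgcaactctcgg
Mcoln1 (chr8:3500462-3500491, plus strand): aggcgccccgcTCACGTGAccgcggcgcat
Gaa (chr11:119267811-119267840, plus strand): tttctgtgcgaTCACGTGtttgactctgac
Glb1 (chr9:114401018-114401047, plus strand): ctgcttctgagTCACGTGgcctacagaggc
Lamp1 (chr8:13159131-13159160, plus strand): ggcacgtgaccacaTCACGTGcggaacgga
Lgmn (chr12:102439124-102439153, minus strand): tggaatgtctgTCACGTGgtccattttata
Naglu (chr11:101070009-101070038, plus strand): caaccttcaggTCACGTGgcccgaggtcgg
Sgsh (chr11:119355521-119355550, minus strand): ggcctgccgtgCACGTGAccgtggggagcg

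The longer TCACGTGA was found for 5 of the 34 members (14.7%), against 1.76% of measured genes and 0.974% of all promoters. None of the motifs searched was in the 1 Hexa promoter of the table, whose closest stretch before the start shared 6 of the 7 letters of TCACGTG. The core CACGTG, which the longer motifs contain, was present in 12 members (35.3%, against 10.8% of measured genes and 7.15% of all promoters). The 11 members with TCACGTG did not share a direction: 8 were higher and 3 lower in Cre-GFP, with a median log2 difference of 0.13, and the 23 without it had 15 higher and a median of 0.11.

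Hexa, the alpha chain of beta-hexosaminidase A, which removes the terminal sugar of GM2 ganglioside, had the largest difference of the 39 members. Its log2 signal read 8.11 in Cre-GFP 1, 8.27 in Cre-GFP 2, 7.01 in control 1 and 6.45 in control 2; values of other genes follow in the same order. Both Cre-GFP arrays stood more than 1 log2 unit above either control array. The log2 difference, Cre-GFP minus control throughout, was 1.46 ± 0.22 (limma's SE, n = 2 per group, 95% confidence interval 0.93 to 1.99), or 2.75-fold, on its 1 probe set, whose name marks it as shared between transcripts of a gene. It ranked 12 among all 12394 genes by signed difference, counted from the highest in Cre-GFP, and 24 by p, which counts both directions. It did not pass the threshold of 0.05 after Benjamini-Hochberg adjustment over all genes in limma (adjusted p = 0.26). Of the 4 fits with 1 array left out, it passed in the one without control 1 (1.74, adjusted p = 0.0038), where 135 genes passed in all, and not in the others (adjusted p = 0.68 without Cre-GFP 1, 0.98 without Cre-GFP 2 and 0.093 without control 2). In each of these fits the lone array of a group is assumed to vary like the pair of the other group.

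The other members lay far closer to no difference. None of the 39 passed in limma over all genes, as none of the 12394 did (0% of all genes; 600 at an unadjusted p under 0.05). At an unadjusted p under 0.05 there were 4 members higher (2.31% of all genes) and 1 lower (2.53% of all genes), or 5 in either direction (4.84% of all genes). Hexa, Gusb, Cln3 and Npc1 were the higher ones and Ppt1 the lower one. In fits without Cre-GFP 1 and without Cre-GFP 2, 2 members were under that p (4% and 4.19% of all genes).

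As a list, the members leaned to higher values in Cre-GFP by a small amount. A positive difference was found in 28 of 39 members (50.1% of all genes), and the median was 0.13, or 0.12 over the 38 other than Hexa, against 0.00 over all genes. Both Cre-GFP arrays stood above both control arrays in 10 members (15.2% of all genes) and below them in 3 (14.9% of all genes), while the groups overlapped in 26. Only Hexa and Ctsl differed by more than 0.5 in either direction. The median was 0.019, with 20 of 39 members higher (52.5% of all genes), when control 1 was left out, and was 0.18 with 31 higher (48% of all genes) without control 2. With 1 array left out, groups that do not overlap are commoner over all genes, so these counts are set beside all genes in the same fit. Members with Cre-GFP above control in all remaining arrays numbered 13 without Cre-GFP 1 (27.6% of all genes, 33.3% of members), 22 without Cre-GFP 2 (38.7% and 56.4%), 15 without control 1 (34.4% and 38.5%) and 24 without control 2 (30.2% and 61.5%). Those below numbered 9 (36.6% of all genes, 23.1% of members), 4 (28.6% and 10.3%), 11 (30.7% and 28.2%) and 6 (32.8% and 15.4%) in the same order.

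**Figure D1:**
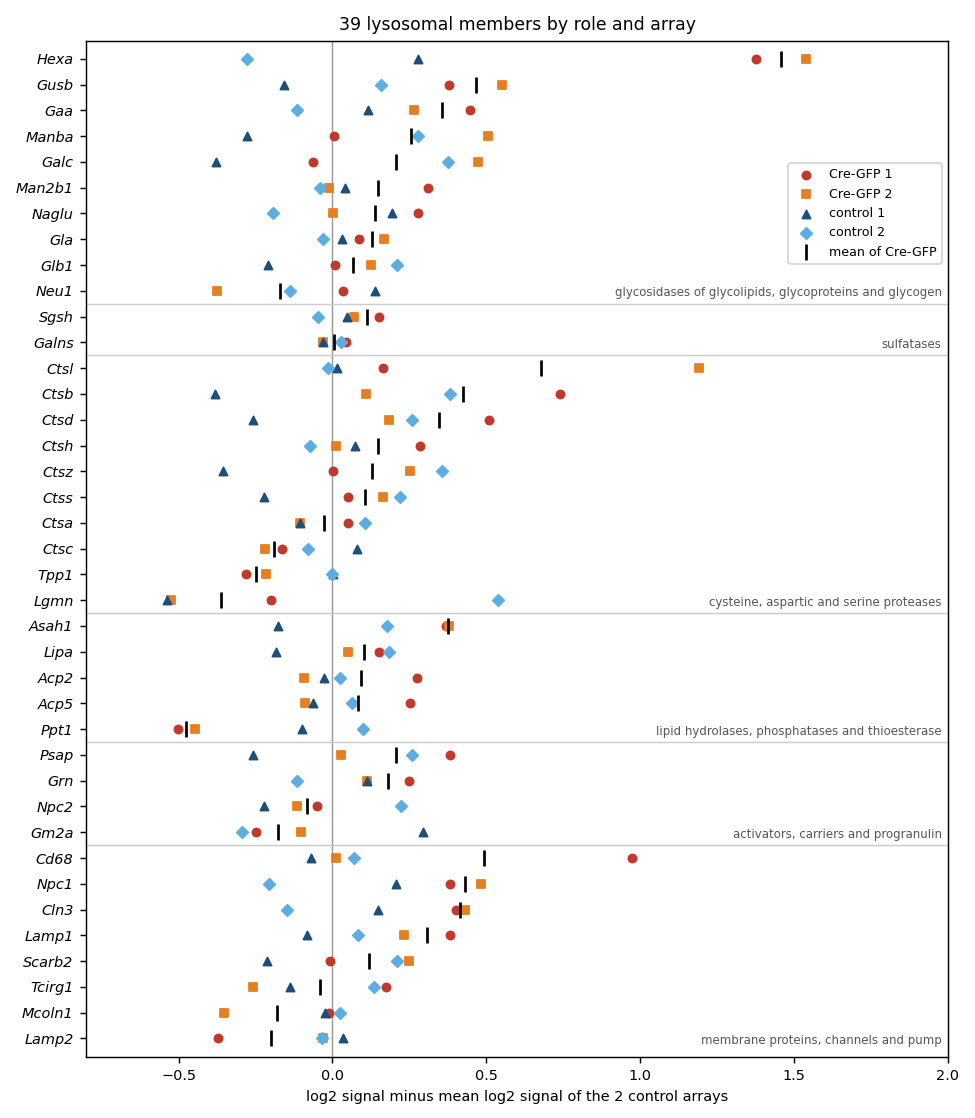
Log2 signal of each of the 39 measured lysosomal genes in each array, minus the mean of the 2 control arrays (x axis), grouped by role (y axis); points are single arrays and the black bar is the mean of the Cre-GFP arrays. Hexa sits at 1.46 while the means of the other members lie between −0.48 and 0.68.

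Within each array, Hexa was set against the rest by taking each gene's deviation from its own mean over the 4 arrays. Hexa exceeded the median deviation of the other 38 members by 0.55 in Cre-GFP 1 and 0.82 in Cre-GFP 2, and lay below it by a difference of −0.35 in control 1 and −1.03 in control 2. In both Cre-GFP arrays 37 of the 38 had a smaller deviation than Hexa, and in control 1 and control 2 this held for 2 and 0. The median deviations of the other members were small (−0.098 in control 1 to 0.098 in Cre-GFP 1), so this measure largely restates Hexa's own difference. The groups did not overlap on it, but an exact two-sided permutation test of 2 arrays against 2 cannot go below p = 0.333.

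Glycosidases, which take sugars off glycolipids, glycoproteins and glycogen, had 9 of 10 higher and a median of 0.18. The median ranged from 0.14 to 0.26 under the alternatives tried, while the number higher was 6 without control 1 and 8 without Cre-GFP 1 or control 2. Gusb, the beta-glucuronidase that degrades glycosaminoglycans, read 7.40 and 7.58 against 6.87 and 7.18 in control. The groups did not overlap, and the difference was 0.47 ± 0.17 (limma adjusted p = 0.92), or 0.31 without control 1, with 0.38 on its other probe set. Gaa, the acid alpha-glucosidase of glycogen, read 9.20 and 9.02 against 8.87 and 8.64, a difference of 0.36 ± 0.18, but its other probe set gave 0.056. Gla, the alpha-galactosidase that degrades globotriaosylceramide, read 5.17 and 5.24 against 5.11 and 5.05, a difference of 0.13 ± 0.10 at a dim signal, with both Cre-GFP arrays only slightly above control.

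On the chosen probe sets, the rest of this role overlapped between groups. Manba (beta-mannosidase) differed by 0.26, Galc (galactosylceramidase) by 0.21 (−0.058 and −0.040 on its other probe sets), Man2b1 (alpha-mannosidase) by 0.15, Naglu, which acts on heparan sulfate, by 0.14, and Glb1 (beta-galactosidase) by 0.067. Neu1, the sialidase, was the 1 glycosidase with a negative value, −0.17 on the chosen probe set and −0.34 and −0.62 on its other 2. Both of those 2, and the Galc probe set at −0.058, lay below control without overlap. The sulfatases Sgsh and Galns, which desulfate glycosaminoglycans, differed by 0.11 ± 0.13 and 0.0062 ± 0.14. The other Sgsh probe set gave −0.013.

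Proteases were mixed, with 6 of 10 higher and a median of 0.12 that turned to −0.11 without control 1 and −0.027 with shared probe sets left out. Ctsl, the cysteine protease cathepsin L, read 5.70 and 6.73 in Cre-GFP against 5.55 and 5.52 in control. The value of Cre-GFP 2 carried the difference of 0.68 ± 0.31, which was 0.16 without that array. Lgmn, the asparaginyl endopeptidase legumain that processes cathepsins, read 5.03 and 4.71 against 4.70 and 5.77, so only control 2 was high. Its difference was −0.36 ± 0.34, or −0.90 (adjusted p = 0.032) without control 1 and 0.18 without control 2.

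Tpp1 and Ctsc, peptidases that clip short peptides from protein ends, were lower in both Cre-GFP arrays. Tpp1 read 8.72 and 8.79 against 9.01 and 9.0, a difference of −0.25 ± 0.16, and 0.046 on its other probe set. Ctsc, cathepsin C, which activates the serine proteases of granules, read 10.55 and 10.50 against 10.80 and 10.63, a difference of −0.19 ± 0.16. Ctsh, an aminopeptidase, read 5.39 and 5.12 against 5.18 and 5.03 and overlapped (0.15 ± 0.13).

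The other cathepsins showed no separation of the groups. The aspartic protease Ctsd differed by 0.35 ± 0.24 and the cysteine protease Ctsb by 0.43 ± 0.33, both lowest in control 1. On the other 3 Ctsb probe sets the differences were 0.32, 0.32 and −0.046. Ctss, an invariant chain protease of antigen-presenting cells, differed by 0.11, Ctsz by 0.13, and Ctsa, the carboxypeptidase that protects Neu1 and Glb1 in their complex, by −0.027.

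Among lipid hydrolases, phosphatases and the thioesterase, 4 of 5 were higher, with a median of 0.091 that turned to −0.088 without Cre-GFP 1. Ppt1, the thioesterase that removes palmitate from proteins, was the exception and the lowest of all members. It read 8.83 and 8.89 in Cre-GFP against 9.24 and 9.43 in control, with no overlap. The difference was −0.48 ± 0.17 (limma adjusted p = 0.91), and −0.60 on its other probe set. Asah1, acid ceramidase, read 8.69 and 8.70 against 8.14 and 8.50, a difference of 0.37 ± 0.19, or 0.20 without control 1. The acid lipase Lipa and the phosphatases Acp2 and Acp5 differed by 0.10, 0.091 and 0.082, and the groups overlapped in each on the chosen probe set. The other 2 probe sets of Acp2 went the other way without overlap (−0.27 and −0.14). Those of Lipa both gave 0.28, 1 of them without overlap.

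The activators and carriers showed no separation of the groups on the chosen probe set of any of the 4 genes. Their median of 0.049 turned to −0.12 with shared probe sets left out and −0.037 without Cre-GFP 1. Gm2a is the GM2 activator protein that presents the ganglioside to hexosaminidase A, and so acts in the same step as Hexa. It read 10.55 and 10.70 in Cre-GFP against 11.09 and 10.51 in control, with control 1 the highest and control 2 the lowest. Its difference was −0.18 ± 0.23, smaller than its SE, or 0.12 without control 1. The remaining Gm2a probe set gave 0.0022, also with overlapping groups. Gm2a thus had no clear direction to set against that of Hexa, so whether the 2 moved together was not resolved.

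Npc2, which hands cholesterol to Npc1, read 13.23 and 13.16 against 13.06 and 13.50 (−0.083 ± 0.17, or 0.14 without control 2). Grn, progranulin, read 12.69 and 12.56 against 12.56 and 12.33 (0.18 ± 0.14), with 0.20 and 0.19 on its other probe sets. The groups did not overlap on the Grn probe set at 0.20. Psap, the saposin precursor, differed by 0.21 ± 0.24 and was lowest in control 1.

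Of 8 measured membrane proteins 5 were higher, with a median of 0.21 that ranged from 0.04 to 0.42 under the alternatives. Npc1, which exports cholesterol from the lysosome, read 6.11 and 6.21 in Cre-GFP against 5.94 and 5.52 in control, a difference of 0.43 ± 0.16 (limma adjusted p = 0.95). Cln3, a membrane protein lost in juvenile Batten disease, read 6.54 and 6.57 against 6.29 and 5.99, a difference of 0.42 ± 0.14 (limma adjusted p = 0.86). Neither gene overlapped between groups, and control 2 was the low array in both: without it the differences were 0.23 and 0.27.

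The 2 most abundant membrane glycoproteins of lysosomes pointed in different ways. Lamp1 read 10.43 and 10.28 in Cre-GFP against 9.96 and 10.13, without overlap, a difference of 0.31 ± 0.17. Lamp2, which also serves in chaperone-mediated autophagy, read 10.57 and 10.91 against 10.97 and 10.91, a difference of −0.20 ± 0.18, or −0.03 without Cre-GFP 1. Its other 3 probe sets lay between −0.22 and −0.14.

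Mcoln1, the calcium channel of the lysosome, read 6.56 and 6.22 against 6.54 and 6.59 (−0.18 ± 0.15, or −0.01 without Cre-GFP 2). Its other probe set gave 0.053. Scarb2, the receptor that carries glucocerebrosidase, differed by 0.12, and Tcirg1, a subunit of the proton pump prominent in osteoclasts, by −0.041. Cd68, a macrophage glycoprotein, differed by 0.49 ± 0.30, and 0.01 without Cre-GFP 1, the 1 high array.

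Single arrays of the same group differed from each other by as much as the group means did. Means of 2 arrays vary less than single arrays, so the measures are unlike and all genes are given beside them. The median size of the difference between control 1 and 2 was 0.28 over the 39 members (0.15 over all genes), between Cre-GFP 1 and 2 it was 0.18 (0.16 over all genes), and between the group means 0.18 (0.10 over all genes). In 12 of the 39 the group difference was larger than the difference within either pair (19.8% of all genes). The members were low as a list in control 1: their median deviation from each gene's mean was −0.10 there, 0.02 in control 2, and 0.10 and 0.00 in Cre-GFP 1 and 2. In control 1 9 of the 39 members lay above their own mean, against 25 in Cre-GFP 1.

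Markers of other cell types moved across the same arrays. The 21 measured monocyte and macrophage markers had median deviations of 0.15 and −0.066 in the Cre-GFP arrays against −0.086 and 0.0051 in the controls, 13 of 21 were higher in Cre-GFP (median difference 0.065), and their summed signal was 15131 and 13927 against 11199 and 13232. Most of that sum was 1 gene, Fabp5, with linear signals of 8754 and 9574 against 9137 and 9358, and Lyz1 (lysozyme) accounted for 3530 and 2277 against 618.5 and 1961. Of the 21 markers 4 read under the 20th percentile of every array, among them the defining markers Itgam, Fcgr1 and C1qb. Both Cre-GFP arrays stood above both control arrays in 5 of the 21 (15.2% of all genes) and below them in 0 (14.9% of all genes). Those above were Csf1r, the macrophage growth factor receptor (1.13 ± 0.34), Lyz1 (1.36 ± 0.54), Lyz2 (0.98 ± 0.41), Ccr2 (0.42 ± 0.18) and Apoe (0.37 ± 0.12). The 12 neutrophil and granule markers had deviations of 0.13 and 0.17 against −0.46 and 0.22, so control 1 was low there too, with summed signals of 3886 and 4598 against 1656 and 5428. Their difference turned from a median of 0.41 to −0.20 without control 1. Within that list both Cre-GFP arrays stood above both control arrays in 4 genes (15.2% of all genes) and below them in 2 (14.9% of all genes). The 4 were primary granule genes, named after their values were seen: Mpo (1.25 ± 0.15), Ctsg (0.99 ± 0.15), Prtn3 (0.70 ± 0.26) and Elane (0.26 ± 0.15). The 2 lower genes were Mmp8 (−0.17 ± 0.12) and Csf3r (−0.15 ± 0.11). Mpo, myeloperoxidase, read 7.32 and 7.32 against 6.21 and 5.93, while the secondary granule gene Ngp read 9.81 and 9.90 against 7.94 and 10.07. The 7 measured osteoclast markers had a median difference of −0.016 and summed signals of 550.1 and 515.7 against 532.01 and 556.9. The part of these cells in the members' differences was not tested.

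Of 17 measured B lineage markers, 14 read above the median of every array, among them the surrogate light chain genes Igll1 and Vpreb1. Of these 17 markers 14 were lower in the Cre-GFP group and 3 higher (50.1% of all genes were higher), with a median of −0.47. Both Cre-GFP arrays stood below both control arrays in 11 (14.9% of all genes) and above them in 1 (15.2% of all genes). Summed signals were 36834 and 35657 against 40828 and 51179. The part of these cells, too, in the members' differences was not tested.

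**Figure D2:**
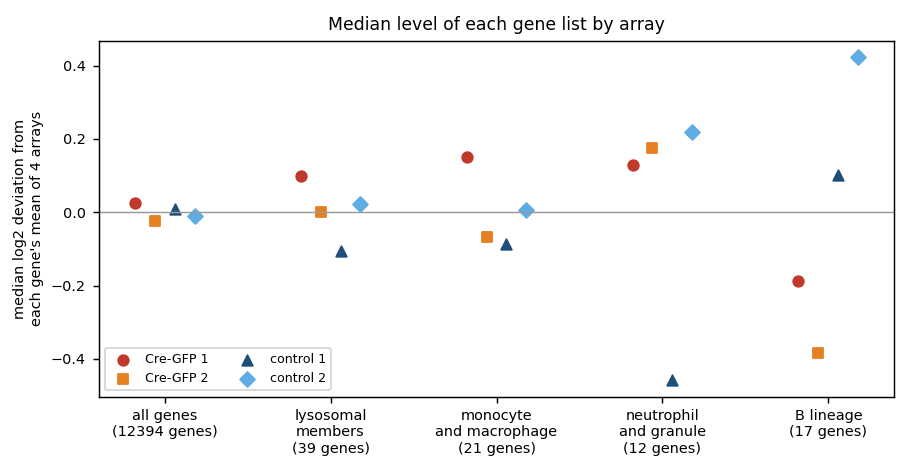
Median deviation of each gene list, on the log2 scale, from each gene's own mean over the 4 arrays (y axis), for all genes, the lysosomal members and 3 lists of cell type markers (x axis); each point is 1 array. Control 1 is the lowest array for the members (−0.10) and for the neutrophil and granule list (−0.46), and Cre-GFP 1 the highest for the members (0.10) and the monocyte and macrophage list (0.15).

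Genes of the lysosome outside the members were taken from 7 lists with 195 genes, of which 158 were measured. None passed over all genes in limma. At an unadjusted p under 0.05, 4 were higher (2.31% of all genes) and 2 lower (2.53% of all genes), and 68 of 158 had a positive difference (50.1% of all genes). Their median was −0.022, against 0.13 for the members. The 7 lists hold sorting, mTORC1, autophagy and fusion genes as well as hydrolases, membrane proteins and the pump, and they did not lean alike.

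Further hydrolases had 15 of 27 higher and a median of 0.01, which turned to −0.020 with 12 higher without Cre-GFP 1. In 8 of the 27 (29.6%) both Cre-GFP arrays stood above both control arrays, against 15.2% of all genes. They stood below in 2 (7.41%, against 14.9% of all genes), so separation leaned as in the members. Pla2g15, a phospholipase, read 6.17 and 5.87 in Cre-GFP against 5.41 and 5.55 in control, without overlap. Its difference was 0.54 ± 0.14 (limma adjusted p = 0.67), and 0.26 as the mean of its probe sets. Ifi30, the interferon-inducible thiol reductase of antigen processing, read 8.79 and 9.31 against 9.71 and 9.85, a difference of −0.73 ± 0.22, or −0.47 without Cre-GFP 1. Creg1, a secreted and lysosomal glycoprotein, differed by 0.51 ± 0.21, or 0.25 without control 1.

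Further membrane proteins had 15 of 25 higher and a median of 0.03, which turned to −0.012 with 12 higher without Cre-GFP 1. Here too separation leaned as in the members. Cre-GFP stood above control in 7 (28%, against 15.2% of all genes) and below in 1 (4%, against 14.9% of all genes). Tpcn1, a two-pore cation channel of endosomes and lysosomes, read 7.80 and 7.86 in Cre-GFP against 6.87 and 7.03 in control. Its difference of 0.88 ± 0.15 (limma adjusted p = 0.29) had a range of 0.80 to 0.96 with any 1 array removed, but was 0.27 as the mean of its probe sets. Laptm4b, a lysosomal membrane protein often raised in tumours, read 9.51 and 10.30 against 8.65 and 8.93, a difference of 1.12 ± 0.29. That was 0.72 without Cre-GFP 2 and 0.01 with shared probe sets left out. Laptm5, its blood cell relative, differed by −0.27 ± 0.15.

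The proton pump and the fusion machinery leaned the other way from the members. Of 21 measured V-ATPase subunits 5 were higher and 16 lower, with a median of −0.08. Both Cre-GFP arrays stood above both control arrays in 0 subunits (15.2% of all genes) and below them in 6 (14.9% of all genes). Atp6v1d, a stalk subunit, read 11.19 and 11.49 against 11.70 and 12.01, a difference of −0.52 ± 0.19 (limma adjusted p = 0.91), or −0.36 without control 2 and −0.29 with shared probe sets left out. The accessory subunit Atp6ap2 and the membrane subunit Atp6v0b differed by −0.20 and −0.25. The median of the pump stayed below 0 under all 12 alternatives, between −0.18 and −0.03. That of the late endosome and lysosome fusion genes stayed between −0.21 and −0.0014. Both came closest to 0 without control 2, where 8 of 21 subunits and 9 of 19 fusion genes were higher (48% of all genes). Control 2 was the high array. Median deviations of the pump were −0.068 and −0.018 in Cre-GFP against 0.0094 and 0.119 in control. Those of the fusion genes were −0.040 and −0.016 against −0.042 and 0.115. In the fusion list 14 of 19 were lower (median −0.13). Vps11, a tethering subunit, differed by −0.23, and the SNARE proteins Stx8 and Stx17 by −0.30 and −0.18. With shared probe sets left out Vps11 differed by 0.074.

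**Figure D3:**
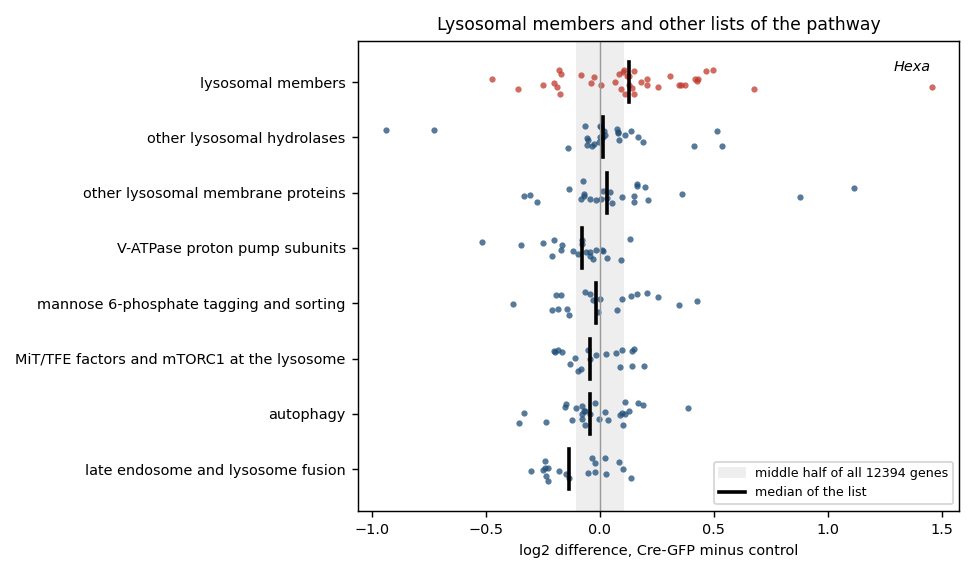
Log2 difference, Cre-GFP minus control (x axis), of each measured gene of the lysosomal members and of 7 further lists (y axis); points are genes, black bars are medians, and the grey band holds the middle 50% of all genes. The members' median is 0.13 and the V-ATPase and fusion lists have medians of −0.08 and −0.13.

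The regulators and the sorting genes showed medians near 0. Among MiT/TFE factors and mTORC1 components at the lysosome, 8 of 19 were higher (median −0.04). Tfeb, the factor that binds the CLEAR element, read 8.61 and 8.42 in Cre-GFP against 8.66 and 8.57, a difference of −0.10 ± 0.17 with overlapping groups. Mitf, its relative, read 6.31 and 6.33 against 6.30 and 6.07, a difference of 0.14 ± 0.13; Tfe3 was not named by the annotation used here. Lamtor1 and Lamtor3, parts of the scaffold that holds mTORC1 at the lysosome, differed by −0.20 and −0.20, and the GTPase Rragd by −0.13.

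Mannose 6-phosphate tagging and sorting genes had 9 of 20 higher (median −0.02). The 2 mannose 6-phosphate receptors, M6pr and Igf2r, differed by −0.042 ± 0.19 and −0.17 ± 0.49, and Igf2r read 8.80 and 7.69 against 8.99 and 7.84. Cln6 and Cln8, which move newly made enzymes out of the endoplasmic reticulum, differed by 0.35 ± 0.15 and 0.42 ± 0.21, and Cln8 by −0.074 with shared probe sets left out. Vps26a, a retromer subunit, differed by 0.26 ± 0.16. Autophagy genes had 11 of 27 higher (median −0.05), with the lipid transfer protein Atg2b at 0.39 ± 0.15, the conjugating enzyme Atg3 at −0.33 and the autophagosome protein Gabarap at −0.36.

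The chromosomal neighbours of Hexa were taken as the 5 nearest measured protein-coding genes on each side in the RefSeq order. Of these 10, 6 were higher, with a median of 0.0083 and a range from −0.44 (Nptn) to 0.49 (Pkm), and 3 stood above both control arrays (15.2% of all genes). Pkm, the glycolytic enzyme pyruvate kinase, read 11.08 and 10.83 in Cre-GFP against 10.52 and 10.41, a difference of 0.49 ± 0.17 (limma adjusted p = 0.89). The nearest measured genes, Arih1 on one side and Parp6 on the other, differed by −0.048 ± 0.17 and 0.027 ± 0.14.

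**Figure D4:**
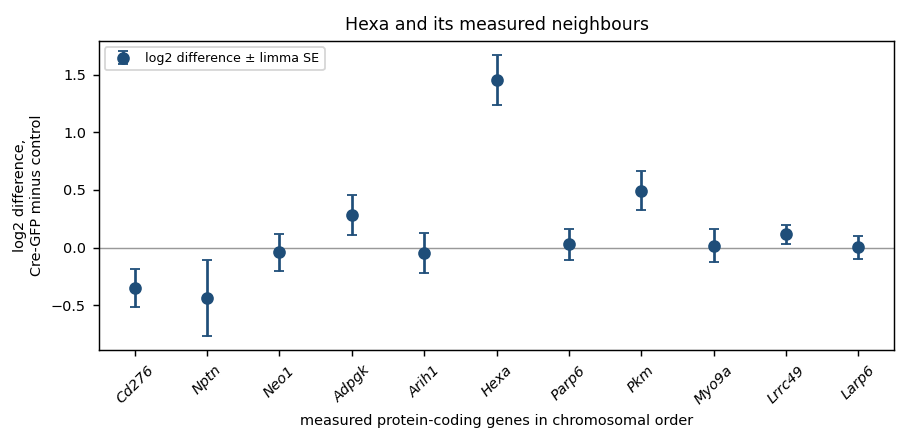
Log2 difference, Cre-GFP minus control (y axis, with limma's SE as bars), of Hexa and the 5 measured protein-coding genes on each side of it, in chromosomal order (x axis; spacing is not to scale). Hexa stands at 1.46 and its 10 neighbours between −0.44 and 0.49.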

How the data were processed

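The authors deposited 1 table of linear intensity values for 22690 probe sets on 4 arrays, made with RMA per the submitters' processing notes; the RMA version and settings are not given in the sources used here. RNA (20 ng) was amplified with a NuGen kit, per the labels' protocols. Median intensities were 85.1 to 87.7. The log2 of each intensity was taken, with no further normalization. By GEO's platform annotation, 20393 probe sets had 1 symbol, 691 had several and 1606 had none. The test was limma's (version 3.58.1, R 4.3.3; lmFit, then eBayes with intensity trend, two-sided, Benjamini-Hochberg over 12394 genes, threshold 0.05). The fit was tested on simulated data. Precision is set by the few arrays, and a gene's 95% interval reached a median of 0.37 log2 units to each side. The members and lists were chosen with earlier results of these data known. Values per array are given for Hexa, members at an unadjusted p under 0.05, the 6 members of smallest p in each direction, the 5 brightest and 3 dimmest, and differences, some with values per array, for up to 3 genes of smallest p per further list and for Tfeb, Mitf, M6pr and Igf2r; Gaa, Lamp1, Pkm and the granule genes were chosen after their values were seen. Alternatives were the mean of probe sets, no shared probe sets (names ending in _x_at, _s_at or _a_at), no genes in the dimmest 40%, values raised to the 20th percentile, requantiling, median centring, no trend, a replicate block and each array left out.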

Additional observations from a re-analysis of the deposited data

How the results depend on the processing

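Of the 39 members, 20 kept the sign of their difference in all 12 alternatives that could measure them (15 higher, 5 lower), and 19 turned in at least 1. Those alternatives did not take each probe set alone. The 20 members with several probe sets had 30 besides the chosen ones, and 10 of these, in 8 members, had the opposite sign. Mcoln1 (0.053), Tpp1 (0.046), Sgsh (−0.013) and Ctsb (−0.046) were among those 8 although they kept their sign in the alternatives. Leaving out single arrays moved the members' median between 0.019 and 0.18, the count past the threshold between 0 and 2, the count at an unadjusted p under 0.05 between 2 and 6, the counts above and below both control arrays between 13 and 24 (27.6% to 38.7% of all genes in those fits) and between 4 and 11 (28.6% to 36.6%), and Hexa's difference between 1.18 and 1.74 (adjusted p from 0.0038 to 0.98; 0.18 to 0.47 in the other alternatives). Over all genes, 135 passed without control 1 and 34 without control 2. With the mean of probe sets, 5 members lay below both control arrays (12.8% of members, against 14.8% of all genes in that fit). Without shared probe sets Hexa and 9 other members were not measured. Signs turned for M6pr (0.071 with the mean of probe sets, 0.02 without Cre-GFP 1, 0.13 without control 2, lowest −0.21 without control 1), Vps11 (0.074) and Cln8 (−0.074) without shared probe sets, Igf2r (0.38 without Cre-GFP 2, 0.41 without control 1, lowest −0.75 without control 2), Gm2a (0.12 without control 1, −0.47 without control 2), Lgmn (0.18) and Npc2 (0.14) without control 2 (−0.90 and −0.30 without control 1); the cause was not tested. Requantiling and median centring left Hexa at 1.45 and the members' median at 0.12. Deviations of same-numbered arrays from their group means correlated at 0.35 over all genes and −0.017 over the members. The labels give no pairing; with the replicate number as a block, 952 genes had an unadjusted p under 0.05 against 600 without it, 0 passed, and 5 members were among the former. Precision is limited by 2 arrays per group.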
